A study of Mus musculus with 5 samples.

Results

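The comparison described here sets the bone marrow of a mouse taken at day 12 after leukemia cell transplantation against that of a mouse taken at day 9, as single-cell RNA sequencing libraries of 1 mouse each. Its members were the barcodes with at least 500 unique molecular identifiers (UMIs) and no more than 10% of UMIs from the mitochondrial genes, which gave 6944 cells at day 9 and 5565 cells at day 12, or 12509 of the 29679 cells that passed the same limits in the 5 libraries of the series. Cells were then assigned to a broad lineage by 4 marker rules. The neutrophil rule asked for at least 5% of UMIs from *S100a8* and *S100a9* with 0 UMIs of *Csf1r*, the monocyte rule for at least 1 UMI of *Csf1r* with at least 2 of *F13a1* and *Ccr2*, the B rule for at least 2 UMIs of *Cd79a*, and the T rule for at least 2 UMIs of *Cd3d* and *Trbc2*. All 5 mice, the day 0 mouse included, were 8-week-old C57BL/6J animals that had received BCR-ABL1 pre-B ALL cells through the tail vein without irradiation, and 1 mouse was killed on each of the 5 days, which besides days 9 and 12 were days 0, 3 and 6. Flushed marrow was pooled with the enzyme digest of the crushed femurs and tibias, red cells were lysed, and the cells were frozen before 10x Genomics 3' v2 libraries were made. The leukemia cells were not sorted away, and they were not identified here, so each value covers host and leukemia cells together. Because each day is 1 mouse and 1 library, day, mouse, freezing and library preparation cannot be told apart, no test between the days was possible, and the 95% intervals given below cover counting error only.

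Marrow is the site where neutrophils, monocytes and B cells are made, and it also holds T cells, plasma cells, red cell precursors and stromal cells. Neutrophils fill their granules in order as they mature, with myeloperoxidase and elastase first, lactoferrin and cathelicidin next and gelatinase last, and the mature cell can quickly transcribe chemokines such as *Cxcl2* and *Ccl3*, which draw other neutrophils and monocytes. Immediate early genes such as *Fos*, *Egr1* and *Dusp1* respond to many stimuli within minutes, including the handling of cells outside the body.

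Both libraries were of like depth per cell. The files held 43554233 UMIs at day 9 and 33425695 at day 12, and the members had a median of 3528 and 3558 UMIs and of 932 and 820 genes. The mitochondrial limit removed 8.68% of barcodes with enough UMIs at day 9 and 5.21% at day 12, and the median mitochondrial share of the members was 1.83% and 0.646%. The libraries stood further apart in the RNA outside cells. Barcodes of at most 100 UMIs, called free RNA here, held 4.07% of all UMIs at day 9 and 11.7% at day 12, against 11.9%, 9.18% and 3.58% at days 0, 3 and 6. Of the free UMIs, *S100a8* and *S100a9* made up 15.0% at day 9 and 20.4% at day 12, above the 5% that the neutrophil rule asks for. The pair of libraries shared 59 barcodes, where 52.4 would be shared by barcodes drawn at random, and 0 of them held identical counts.

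The neutrophil set made up a larger share of the day 12 marrow, and the B set a smaller one. Neutrophils were 54.6% of cells at day 9 (3789 cells) and 72.6% at day 12 (4039 cells), a difference of 18.01 percentage points (95% interval 16.3 to 19.7). B cells were 11.2% (776 cells) and 2.32% (129 cells), a difference of -8.86 points (-9.70 to -8.02). Both are shares of the cells sequenced and give no number of cells per marrow. T cells were 4.77% and 3.52% (331 and 196 cells), and monocytes 8.42% and 7.08% (585 and 394 cells), so that both were lower by under 2 points. Cells that met more than 1 rule were set aside and were 2.61% and 1.42%, while cells that met no rule were 18.5% and 13.1%. For days 6 and 3, a pair that shares no library with this one, the differences were -6.42 points for neutrophils, -0.168 for monocytes, 5.11 for B cells and 1.33 for T cells. Among the cells outside the neutrophil set, B cells were 24.6% at day 9 and 8.45% at day 12, monocytes 18.5% and 25.8%, and T cells 10.5% and 12.8%. The lower B share therefore stood also without the neutrophils in the denominator, whereas the monocyte and T shares were higher at day 12 on that base. The size of these differences depended on the mitochondrial limit. With a limit of 5% of UMIs, the difference was 13.1 points for neutrophils and -4.24 points for B cells, and the median mitochondrial share of the B set under the 10% limit was 5.13% at day 9 and 3.89% at day 12.

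**Figure D1:**
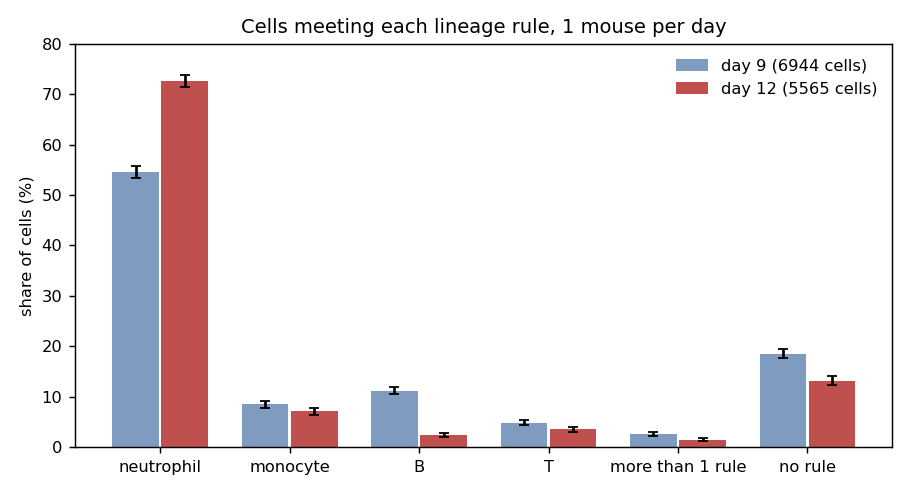
Share of cells (%) that met each lineage rule in the day 9 and day 12 libraries, 1 mouse each, with bars for the share and whiskers for its exact binomial 95% interval. The neutrophil bar is at 54.6% for day 9 and 72.6% for day 12, and the B bar at 11.2% and 2.32%.

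The sets were checked against markers that the rules did not use. Markers of neutrophils such as *Camp*, *Ngp* and *Retnlg* summed to 109726 counts per 1000000 UMIs of the set (CPM) in neutrophils at day 9 and 108481 at day 12, and to between 7104 and 11098 in the monocyte, B and T sets. Monocyte markers summed to 9221 and 9431 in the monocyte set and to 1903 and 1569 in the neutrophil set. B markers summed to 28536 and 16800 in the B set, against 778 and 326 in the T set. T markers summed to 2815 and 2945 in the T set, against 138 and 133 in the B set. Each set thus carried its own markers in both libraries. The T set also carried cytotoxic genes such as *Ccl5* and *Nkg7* (list sums of 7638 and 7655 CPM), and the B set plasma cell genes at day 9. Taken from the markers a set should lack, free RNA could make up no more than 14.1% of UMIs in the neutrophil set at day 9 and 19.3% at day 12, with 16.5% and 12.3% for monocytes, 13.5% and 8.77% for B cells, and 18.1% and 13.9% for T cells.

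Over the whole libraries, the chemokine genes *Cxcl2* and *Ccl3* were among the genes that stood highest at day 12, and globin and cartilage genes among those that stood lowest. Of 11246 genes with at least 50 summed UMIs, 95 (0.845%) were at least 2-fold higher and 809 (7.19%) at least 2-fold lower at day 12, where for day 6 against day 3 the shares were 1.37% and 1.43%. The median log2 ratio over all genes was -0.30, so a gene at 0 was higher than most, and 12 neutrophil genes, *S100a8* and *S100a9* among them, took 25.6% of UMIs at day 9 and 36.9% at day 12. With TMM scaling, which sets the middle of the ratios to 0, the counts were 210 higher and 476 lower. When the day 9 sets were recombined in their day 12 proportions, with no other difference, 104 genes were at least 2-fold lower and 0 higher. When the day 12 sets were instead weighted to their day 9 proportions, 282 genes were lower and 113 higher, and 272 and 75 of these were among those observed to be lower or higher.

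The highest gene by the naming rule was *Apol8*, an apolipoprotein L family gene, with 8 UMIs at day 9 and 73 at day 12. The neutrophil chemokine gene *Cxcl2* had 66.9 CPM at day 9 and 359 at day 12 (log2 ratio 2.42, 2.36 to 2.49). *Trem1*, a receptor that amplifies myeloid inflammation, had 31.2 and 144 CPM. The stress gene *Gadd45a* had 116 and 392 CPM, and *Trib1*, a regulator of myeloid differentiation, had 53.3 and 169.6. Together with *Ccl3* (38.2 and 161 CPM), *Cd14* (43.3 and 135), *Fosl1* (1.38 and 8.50), *Adam30* (0.460 and 2.36) and *Tnfaip6* (3.02 and 11.0) these were the 10 highest. Except for *Apol8* and *Adam30*, with under 100 UMIs in both libraries together, they rested on many cells. No barcode held over 6.25% of the day 9 or 1.32% of the day 12 counts of *Cxcl2*, *Trem1*, *Gadd45a*, *Trib1* or *Fosl1*. Of the gene lists, 7 of 31 inflammatory genes were at least 2-fold higher and 3 lower over the whole library, with a like sum (7600 and 8111 CPM), and 2 of 26 immediate early genes were higher and 0 lower. Erythroid genes had 7 of 10 at least 2-fold lower and stromal and endothelial genes 8 of 11.

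The lowest were genes of red cells and cartilage that were at or near 0 at day 12. *Hbb-bs*, an adult beta globin gene, had 30988 UMIs at day 9 and 19 at day 12, and *Hba-a1*, *Hba-a2* and *Hbb-bt*, whose reads can be split between near-identical copies, had 18270, 14850 and 7751 UMIs against 23, 17 and 14. *Col2a1*, the collagen of cartilage, had 3274 and 0 UMIs, at least 838-fold lower against a floor of 3 counts. The cartilage genes *Col11a1* (at least 108-fold), *Cytl1* (at least 94.7-fold) and *Col9a1* (at least 78.8-fold) were also at 0 at day 12, and the matrix gene *Sparc* had 1362 and 1 UMIs. From day 0 to day 12, *Col2a1* had 0, 252, 2479, 3274 and 0 UMIs and *Col9a1* 0, 31, 193, 308 and 0. The day 0 library thus lacked these cartilage transcripts too, whereas *Hbb-bs* had 12023, 2798, 11208, 30988 and 19 UMIs. *Msmp*, a microseminoprotein gene, had 6022 and 0 UMIs, but 5561 of them lay in 1 barcode, and 311 of the 370 *Cytl1* UMIs likewise. Of the 809 lower genes, 17 had over 50% of their day 9 counts in 1 barcode.

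**Figure D2:**
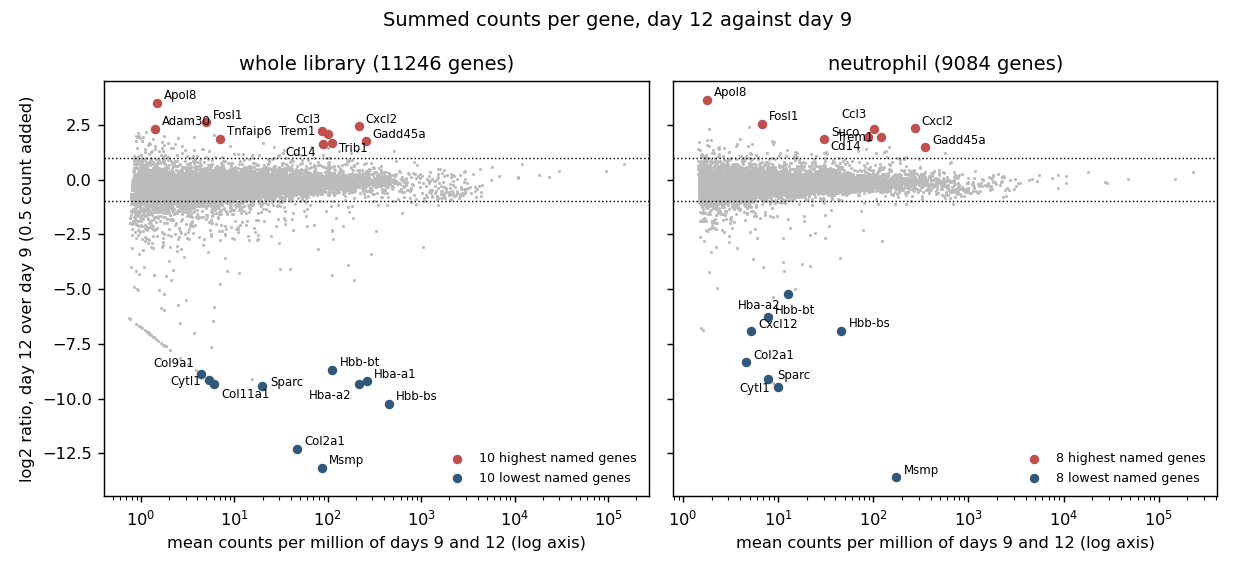
Log2 ratio of day 12 over day 9 against the mean CPM of both libraries (log axis) for each gene tested, over the whole library (left, 11246 genes) and in the neutrophil set (right, 9084 genes), with the genes named by rule in red (highest) and blue (lowest) and dotted lines at 2-fold. *Cxcl2*, *Trem1*, *Ccl3* and *Gadd45a* lie above the upper line in both panels, and globin and cartilage genes far below the lower one.

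In neutrophils, *Cxcl2*, *Ccl3*, *Trem1* and *Gadd45a* were again among the highest genes, while the granule genes that mark maturation differed by less than 2-fold. Of 9084 genes tested in this set, 79 (0.87%) were at least 2-fold higher and 252 (2.77%) at least 2-fold lower at day 12, against 0.716% and 0.341% for day 6 over day 3. The median log2 ratio was -0.20, and with TMM scaling 142 genes were higher and 152 lower. *Cxcl2* (chromosome 5 from 90903871 to 90905938, mm10) had 89.5 CPM at day 9 and 454 at day 12 (log2 ratio 2.34, 2.26 to 2.42). *Ccl3* (chromosome 11 from 83647844 to 83649355), a chemokine gene for monocytes and neutrophils, had 33.7 and 167 CPM (2.31, 2.18 to 2.44). Both lay among the genes that the naming rule placed highest in the whole library too. *Cd14*, the lipopolysaccharide co-receptor, had 36.5 and 141 CPM (log2 ratio 1.95), and *Trem1* (chromosome 17 from 48232768 to 48246924) 50.4 and 191 (1.92). *Gadd45a* (chromosome 6 from 67035096 to 67037457) had 185 and 514 CPM (1.48), and *Suco*, whose product is needed for collagen production in bone, 13.05 and 46.9 (1.84). *Fosl1*, an AP-1 subunit gene, had 32 and 203 UMIs, and *Apol8* 4 and 59.

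The bases before the start were searched for motifs in the 4 genes with the most UMIs among those named highest in neutrophils, which were *Gadd45a*, *Cxcl2*, *Trem1* and *Ccl3*, and are shown for the pair of chemokine genes. Each sequence runs 5' to 3' on the gene's own strand from 250 to 31 bases before the RefSeq start, from RefSeq on GRCm38.p6, at chr5:90903649-90903868 (plus strand) for *Cxcl2* and chr11:83649409-83649628 (minus strand) for *Ccl3*, and capitals mark letters that match a motif. The RefSeq start is not the gene start given above, which is from GENCODE. It lies 28 bases downstream of it for *Cxcl2* (at 90903899) and 23 bases upstream of it for *Ccl3* (at 83649378).
Cxcl2: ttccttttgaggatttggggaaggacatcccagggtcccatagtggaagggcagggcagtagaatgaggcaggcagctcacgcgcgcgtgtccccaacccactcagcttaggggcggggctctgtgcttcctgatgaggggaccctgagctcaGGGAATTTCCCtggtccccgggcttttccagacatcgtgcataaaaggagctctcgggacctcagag
Ccl3: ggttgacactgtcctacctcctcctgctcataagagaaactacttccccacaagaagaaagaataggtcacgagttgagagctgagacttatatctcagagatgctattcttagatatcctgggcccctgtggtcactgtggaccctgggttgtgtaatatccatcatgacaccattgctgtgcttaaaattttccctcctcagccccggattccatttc
The motifs searched on both strands, over all 250 bases, were the NF-kappaB consensus and TGANTCA, the motif of AP-1. The *Cxcl2* stretch held an NF-kappaB match on either strand, overlapping and beginning 97 and 96 bases before the RefSeq start, and 0 AP-1 matches. The *Ccl3*, *Gadd45a* and *Trem1* stretches held 0 matches to either, so 1 of the 4 had a match. Of 32851 mouse promoters of that length, 3.90% held the NF-kappaB motif and 6.75% the AP-1 motif, so a match describes the letters and does not mark a bound site.

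A larger share of neutrophils carried these transcripts at day 12, and the median depth over all cells of the set was 3161 UMIs at day 9 and 3273 at day 12. A *Cxcl2* UMI was found in 15.2% of neutrophils at day 9 (576 of 3789) and in 44.6% at day 12 (1802 of 4039). After each cell was thinned to 500 UMIs, which left out none, the shares were 5.30% and 19.0%. In T cells, which should hold little of it, the shares were 3.93% and 16.3%, and 0.906% and 2.04% after thinning, at a median of 2797 and 2645.5 UMIs. The neutrophil shares thus lay above those of T cells in both libraries. *Trem1* was found in 17.97% and 49.1% of neutrophils against 2.11% and 7.65% of T cells. *Gadd45a* was found in 46.1% and 76.0% of neutrophils against 8.46% and 18.4% of T cells. *Ccl3* was found in 7.65% and 28.1% of neutrophils against 3.63% and 12.2% of T cells, and *Cd14* in 10.4% and 30.8% against 1.81% and 2.04%. The free RNA itself held 156 CPM of *Cxcl2* at day 9 and 685 at day 12, and the part of free RNA in the higher shares was not tested beyond this. With free RNA subtracted from the set, the log2 ratios were 2.34 for *Cxcl2*, 2.35 for *Ccl3*, 2.04 for *Cd14*, 1.83 for *Trem1* and 1.404 for *Gadd45a*.

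The other libraries place the day 9 values. From day 0 to day 12, *Cxcl2* in the neutrophil set had 445, 69.1, 117, 89.5 and 454 CPM. *Gadd45a* had 498, 209, 234, 185 and 514 CPM, and *Trem1* 163, 47.4, 54.4, 50.4 and 191. *Ccl3* had 199.6, 33.4, 49.4, 33.7 and 167 CPM. For each of these genes the libraries of days 3, 6 and 9 lay low and apart from those of days 0 and 12, and day 9 was not the one that stood out. *Suco* lay higher at day 12 (46.9 CPM) than at day 0 (23.1), and so did *Fosl1* (11.5 and 4.99). Days 0 and 12 were also the libraries with the largest shares of free UMIs, which from day 0 to day 12 were 11.9%, 9.18%, 3.58%, 4.07% and 11.7%. Day 3 was nearer to days 0 and 12 in this share, but lay low for these genes. The part of free RNA in the pattern was not tested.

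**Figure D3:**
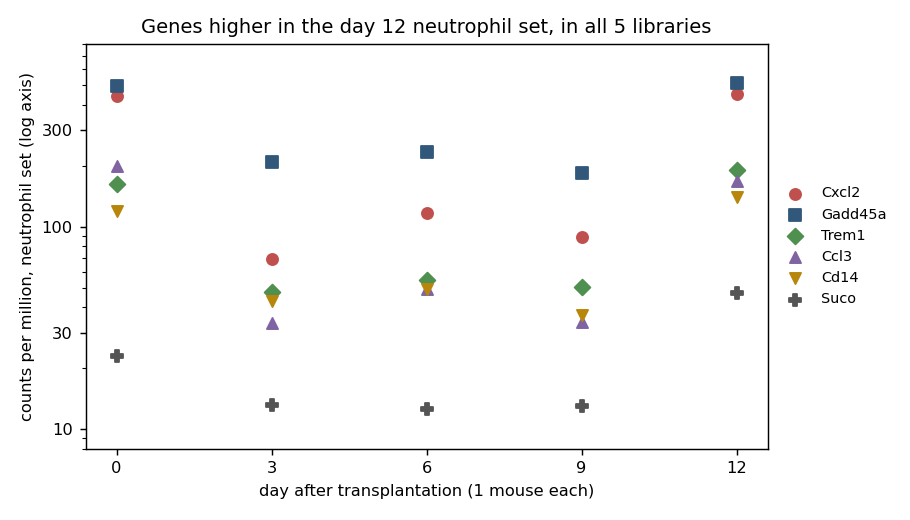
CPM in the neutrophil set (log axis) of 6 genes higher at day 12 than at day 9, in the 5 libraries, 1 mouse per day and 1 point per library. *Cxcl2*, *Gadd45a*, *Trem1*, *Ccl3* and *Cd14* are low at days 3, 6 and 9 and high at days 0 and 12, with *Cxcl2* at 445, 69.1, 117, 89.5 and 454.

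Gene lists showed which groups differed in neutrophils. Of 25 immediate early genes tested, 5 were at least 2-fold higher and 0 lower, with a median log2 ratio of 0.36 beside -0.20 over all genes, and 21 lay above 0. They were the transcription factor genes *Egr1* (19.9 and 44.8 CPM), *Fosb* (140.4 and 282), *Atf3* and *Csrnp1* and the phosphatase gene *Dusp1* (337 and 793), while *Fos* (484 and 842) and *Klf2* (477 and 796) stayed under 2-fold. The list made up a median of 0.414% of a neutrophil's UMIs at day 9 and 0.657% at day 12. Of 28 inflammatory genes, 8 were at least 2-fold higher and 1 was lower. Beside *Cxcl2*, *Ccl3* and *Cd14* these were the chemokine genes *Ccl4* (18.3 and 42.4 CPM) and *Ccl2*, the cytokine gene *Osm* (45.6 and 119.9), and the NF-kappaB regulators *Nfkbiz* (63.7 and 149) and *Tnfaip3*, and the lower one was *Cd83*. The list as a whole did not lie higher, with a median of 0.05 and a lower sum at day 12 (12016 and 10225 CPM), in which *Lcn2* (9950 and 7717) and *Ccl6* (910.4 and 531) weighed most.

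Granule and precursor genes differed by less than 2-fold each, but the gelatinase granule list lay higher at day 12. Of 8 gelatinase granule genes, 16 secondary granule genes, 10 primary granule genes and 8 precursor genes, 0 passed 2-fold. *Retnlg*, the resistin-like gene of late neutrophils, had 15689 and 20123 CPM, and the gelatinase granule list summed to 20516 and 24915. Over the 5 libraries that sum was 15347.5, 19949, 20599, 20516 and 24915, highest at day 12. The gelatinase list made up a median of 2.39% of a neutrophil's UMIs at day 9 and 3.36% at day 12. For secondary granule genes the medians were 7.27% and 6.80%. *Camp*, the cathelicidin gene, had 46831 and 47130, and *Ngp* 30208 and 26756. Late neutrophil genes had 4 of 27 at least 2-fold higher, and these were *Cxcl2*, *Trem1*, *Dusp1* and the lectin gene *Clec4e* (2416 and 5309 UMIs). The mitochondrial genes had a lower sum at day 12 (14333 and 8881 CPM), with 3 of 13 at least 2-fold lower, and the free RNA held 54393 and 26894 of them. Ribosomal protein genes (74522 and 56063 CPM) and glycolysis genes (3898 and 3162) had lower sums, but 0 of 82 and 0 of 30 were 2-fold lower.

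Among the lower genes of the neutrophil set were genes that neutrophils are not known for. The lists given next cover only a part of the 252 lower genes. Markers of B cells were 2-fold lower in 8 of 9 cases (547 and 194 CPM in sum), those of plasmacytoid dendritic cells in 10 of 11 (204 and 66.5), MHC class II genes in 7 of 11 (397 and 124) and erythroid genes in 5 of 8 (181 and 14.9). In the free RNA the same lists summed to 3779 and 979, 1374 and 437, 2641 and 1161, and 1384 and 53.5 CPM. These lists thus moved in the free RNA in the same direction, and its part in the result was not tested. Of the 8 lowest named genes, *Msmp* (5809 and 0 UMIs), *Cytl1* (330 and 0) and *Sparc* (259 and 0) had 5561, 311 and 172 of their day 9 UMIs in 1 barcode, and *Hbb-bs* (1523 and 13 UMIs) was spread over 1022 cells. *Col2a1* (153 and 0 UMIs) lay in 150 cells with no more than 2 UMIs in each. The interferon-stimulated list held 6 of 43 lower genes, among them *Ly6e* (155 and 71.1 CPM) and *Bst2*, with a sum of 2533 and 2414.

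In monocytes, the chemokine gene *Ccl2* and the immediate early genes *Atf3* and *Dusp1* were higher, and the granule genes *Mpo* and *Cst7* were lower. Of 7995 genes, 50 (0.625%) were at least 2-fold higher and 77 (0.963%) lower, against 0.305% and 0.294% for day 6 over day 3, and the median ratio was 0.02. *Ccl2* (chromosome 11 from 82035571 to 82037453), the main attractant of monocytes, had 34.3 CPM at day 9 and 156 at day 12 (log2 ratio 2.18, 1.93 to 2.44). A *Ccl2* UMI was found in 15.9% of 585 monocytes at day 9 and in 36.8% of 394 at day 12, and in 1.51% and 2.04% of T cells. After thinning the monocyte shares were 2.39% and 9.90%, so the order held at equal depth. *Atf3*, a stress transcription factor gene, had 84.2 and 237 CPM, in 39.8% and 66.0% of monocytes and in 3.93% and 5.61% of T cells. *Dusp1* had 377 and 834 CPM, *Ccl3* 79.5 and 187, and the noncoding RNA *Neat1* 177 and 399.9. *Hist1h2ae*, a histone gene of a family of near-identical copies, had 81.6 and 265 CPM in 23.1% and 26.9% of monocytes and in 3.63% and 2.55% of T cells. *Klf11* (29 and 62 UMIs) and *Emp1* (19 and 44) completed the 8 highest. Over the 5 libraries *Ccl2* had 179, 29.995, 30.9, 34.3 and 156 CPM in monocytes, again with days 3, 6 and 9 below days 0 and 12.

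Among genes at least 2 times the level of the free RNA, the lysozyme gene *Lyz1* had 123 and 269 CPM in monocytes, in 58.1% and 77.2% of them and in 2.11% and 1.53% of T cells, and *Klf9*, *Rbm8a2*, *Acot10* and *Hist1h2ab* were higher as well. Of 25 immediate early genes 2 were at least 2-fold higher, *Atf3* and *Dusp1*, and 1 was lower, *Myc* (13.3 and 4.58 CPM), and the list sum was 5147 and 8024, with *Fos* at 1125 and 2115. The classical monocyte genes held 0 of 17 past 2-fold and summed to 33792 and 39091 CPM, with *Lyz2* at 18202 and 22114. Primary granule genes were lower in sum (3280 and 2350 CPM), with 2 of 10 at least 2-fold lower, *Mpo* (501.1 and 239.5), the myeloperoxidase gene, and *Cst7*, while *Elane*, of neutrophil elastase, had 613 and 338. Cells with at least 20 UMIs of *Elane*, *Mpo* and *Prtn3* together were 92 of 585 monocytes (15.7%) at day 9 and 29 of 394 (7.36%) at day 12, and their part in these values was not tested. At days 0, 3 and 6 they were 10.1%, 9.11% and 8.83% of the set. From day 0 to day 12, *Mpo* had 385, 381, 229, 501.1 and 239.5 CPM in monocytes, so day 9 was the highest library and day 6 was as low as day 12. *Elane* had 595, 419.9, 355, 613 and 338 CPM, with day 6 near day 12 as well. Interferon-stimulated genes had 2 of 44 lower, *Cxcl10* (31.4 and 10.1 CPM) and *Ifit1*, and MHC class II genes had 0 of 9 past 2-fold (3397 and 3202 CPM). The lowest named genes were *Hbb-bs*, *Igha*, *Iglc1*, *Jchain* and *Msmp*, which had no more than 3 counts left in either library after free RNA was subtracted, *Siglech* (75 and 1 UMIs), and the stromal genes *Cxcl12* (153 and 0 UMIs, in 10 cells) and *Igfbp5* (53 and 0, in 6 cells). Among genes above free RNA, the ribosomal protein genes *Rpl29* (1538 and 985 CPM), *Rps12*, *Rps26* and *Rpl28*, *Cd93* (46.3 and 28.8) and *Cxx1a* were lowest, and ribosomal genes have many near-identical copies.

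**Figure D4:**
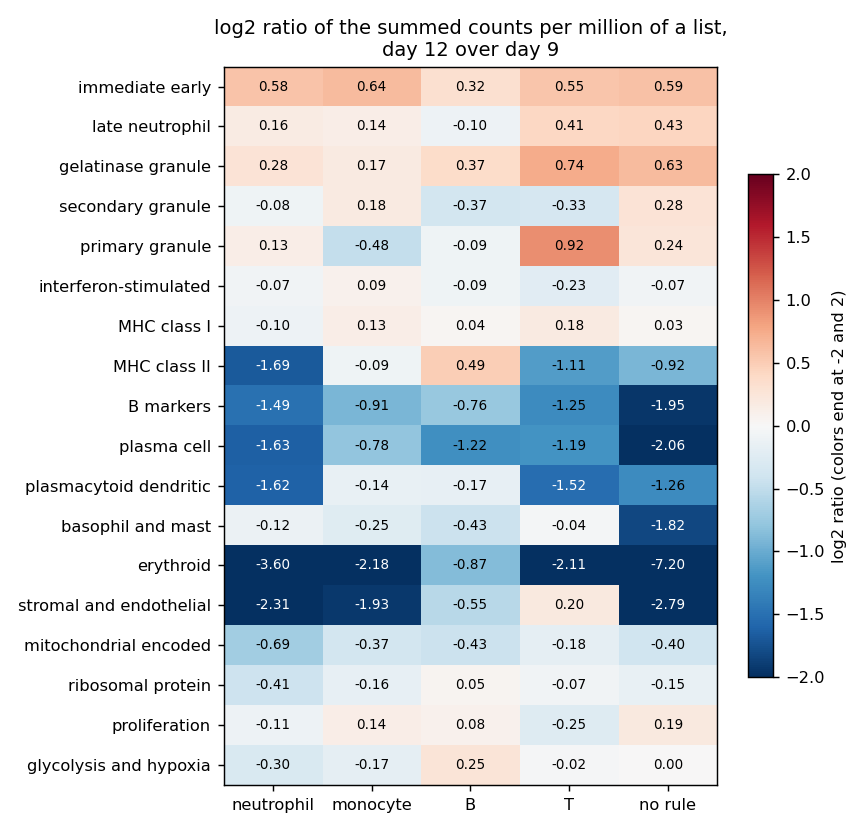
Log2 ratio of day 12 over day 9 of the summed CPM of 18 gene lists (rows) in the neutrophil, monocyte, B and T sets and in the cells that met no rule (columns), as numbers and as colors that end at -2 and 2. The immediate early list is above 0 in all 5 columns, at 0.58 in neutrophils and 0.64 in monocytes, and the erythroid list is below 0 in all 5.

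The B set of day 12 was small, and its values rest on few cells. Leukemia cells may be among them, since they were not identified. The 129 cells of the day 12 B set held 464531 UMIs, of which the 3 largest barcodes held 17.9%, against 3.09% of the day 9 set. Of 5718 genes, 110 (1.92%) were at least 2-fold higher and 150 (2.62%) lower at day 12. For day 6 over day 3 the shares were 7.99% and 4.43%. The B sets of that pair held 3878664 UMIs at day 3 and 3245675 at day 6. Their *Vpreb2* level, 415 and 41.3 CPM, differed widely, so these shares are no neutral measure here. Over 10% of the day 12 counts lay in 1 barcode for 100 of the 110 higher genes. The share of all 5718 genes with such a barcode was not counted. *Vpreb2* (chromosome 16 from 17980428 to 17981273), a surrogate light chain gene of pro-B and pre-B cells, had 61.9 and 170.1 CPM (log2 ratio 1.46, 1.06 to 1.85). It was found in 9.66% of B cells at day 9 and in 10.9% at day 12 (14 cells). The share of cells with *Vpreb1* was 20.9% and 16.3%, with *Igll1* 20.7% and 16.3%, and with *Dntt*, the enzyme that adds bases at antigen receptor joints, 11.1% and 10.9%. The binomial intervals of each of these shares overlapped between the days, so the shares showed no clear difference at this depth, and they do not exclude one. From day 0 to day 12, *Vpreb2* had 82.3, 415, 41.3, 61.9 and 170.1 CPM in the B set. A difference in the precursor part of the set was not tested. *Ms4a1*, which codes for CD20, was found in 47.6% and 55.8% of B cells and *Ighd*, a mature heavy chain gene, in 37.0% and 41.9%, with overlapping intervals as well. In neutrophils, each of these 6 B-lineage genes was found in no more than 3.64% of cells in either library.

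Most MHC class II genes lay above 0 in the B set. Of 11 genes 9 had a log2 ratio above 0, though 0 were 2-fold higher and *Ifi30* was lower, with a median of 0.43 beside 0.05 over all genes and a sum of 6824 and 9595 CPM. The invariant chain gene *Cd74* had 3796 and 5530 CPM, *H2-Ab1* 737 and 1158, *H2-Aa* 806 and 1085 and *H2-Eb1* 612 and 924. *H2-Aa* was found in 55.3% of B cells at day 9 (95% interval 51.7 to 58.8%) and in 70.5% at day 12 (61.9 to 78.2%), while in neutrophils it was found in 13.3% and 2.65%. Thinned to 500 UMIs, the B shares were 36.6% and 55.8%. In the free RNA the list summed to 2641 CPM at day 9 and 1161 at day 12. From day 0 to day 12 the list summed to 15926, 3668, 9647, 6824 and 9595 CPM in the B set. Day 12 thus lay near day 6 and below day 0.

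Several antibody genes were lower in the B set, and much of their day 9 sum lay in single barcodes. *Jchain*, which joins secreted antibodies, had 10980 UMIs in 106 cells at day 9 and 350 in 3 cells at day 12, 348 of them in 1 barcode. *Iglc1* had 6235 and 217 UMIs with 4167 of the day 9 counts in 1 barcode, and *Iglc2* 8932 and 426 with 5548 in 1. Without those barcodes the log2 ratios were -0.90 for *Iglc1* and -0.51 for *Iglc2*, in place of -2.24 and -1.79. For *Ighm* (4408 and 1705 CPM) the ratio was -1.37 with and -0.93 without them. The share of B cells with *Iglc2* was 60.1% and 58.9%, with overlapping intervals, against 15.3% and 1.14% of neutrophils. *Iglv1*, *Iglv2* and *Igkv6-20* (399, 73 and 61 UMIs at day 9) had 13, 0 and 0 at day 12. The plasma cell list summed to 9750 and 4174 CPM, B markers to 28536 and 16800 and the B progenitor list to 9526 and 8030, in which *Vpreb3* had 1999 and 1315 and *Ebf1*, the B lineage factor gene, 1860 and 1599. Over the 5 libraries the plasma cell list summed to 724, 2740, 3678, 9750 and 4174 CPM in the B set. Day 9 was thus its highest library, and day 12 lay above days 0, 3 and 6. *Jchain* was also highest at day 9, with 1.22, 586, 2177, 3904 and 753 CPM. B markers were highest at day 6, with 14415.5, 8219, 32632, 28536 and 16800. Antibody genes and their pseudogenes share sequence, and reads can be split between them. *Rgs10* (117 and 1 UMIs), *Ly6k*, *Hbb-bs* and *Hba-a2* were also among the lowest, and *Hist1h2bj*, *Hist2h2bb*, *Exosc7*, *Wdr18*, *Clec4e*, *Ncl*, *Rps27rt* and *Rps18-ps3* among the highest, the last a pair of ribosomal copies. Another gene entry with the symbol *Hist2h2bb* went the other way in the B set, with 6 UMIs at day 9 and 0 at day 12, too few to be tested.

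Among the 8 highest genes of the T set, the delta chain gene *Trdc* was the one that lay far above its free RNA level and was spread over cells. Of 3236 genes, 42 (1.3%) were at least 2-fold higher and 46 (1.42%) lower, against 0.772% and 0.683% for day 6 over day 3. *Trdc* (chromosome 14 from 54142851 to 54148868), the constant region of the delta chain of the T cell receptor, had 69.7 and 252 CPM (log2 ratio 1.85, 1.45 to 2.27). Over the 5 libraries the T set had 97.8, 182, 95.3, 69.7 and 252 CPM of *Trdc*, so day 9 was the lowest and day 12 the highest. *Trdc* was found in 7.85% of T cells at day 9 (26 of 331, 5.195 to 11.3%) and in 17.9% at day 12 (35 of 196, 12.8 to 23.9%), and in 0.211% and 0.371% of neutrophils. Thinned, the shares were 2.42% and 10.2%. *Cd8b1*, of cytotoxic T cells, was found in 31.1% and 27.0%, and *Cd4*, of helper T cells, in 6.04% and 3.57%, with overlapping intervals. *Ms4a4b*, a T cell membrane gene, had 641 and 1026 CPM in 76.1% and 83.2% of T cells, and the NK receptor genes *Klra7* and *Klre1* had 124 and 218 CPM and 159 and 87.5 CPM. *Cd8b1*, *Cd4* and *Ms4a4b* were found in no more than 2.40% of neutrophils. T markers (0 of 12) and cytotoxic genes (0 of 12) did not pass 2-fold.

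Other T-set genes rested on 1 barcode, or were genes whose free RNA differed as well. *Elane* had 195 and 441 UMIs with 400 of the day 12 counts in 1 barcode, and *Ctsg*, *Prtn3*, *Ms4a3* and *Mpo*, also genes of early granulocytes, had 150 of 192, 204 of 243, 84 of 92 and 141 of 179. *Cxcl2* had 13 and 78 UMIs with 38 in 1 barcode, and *Il1b* 22 and 39 with 16. Immediate early genes had 3 of 18 at least 2-fold higher, which were *Fos* (286 and 582 CPM), *Egr1* and *Ppp1r15a*, and a median of 0.59. The sum of that list was 3048 and 4463 CPM in the T set and 6037 and 8458 in the free RNA, whose part was not tested. Proliferation genes had 2 of 24 lower, *Cdca3* and *Ccnb2*, and a sum of 5664 and 4751 CPM, and the replication histone gene *Hist1h2ap* had 309 and 77.2 CPM in 30 and 11 cells. *Hbb-bs*, *Ly6d*, *Igkc*, *Cd74*, *H2-Aa*, *Igha* and *Grn*, genes of other cell types, were lowest. Of the genes above free RNA, *Rpl29* (2132 and 1457 CPM), *Rpl12*, *Rps12*, *Eef1a1*, *Tpt1* and *Hsph1* were lower, and *Rps27rt*, *Rps18-ps3*, *Rpl9-ps6*, *mt-Nd4l* and *Hypk* higher.

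**Figure D5:**
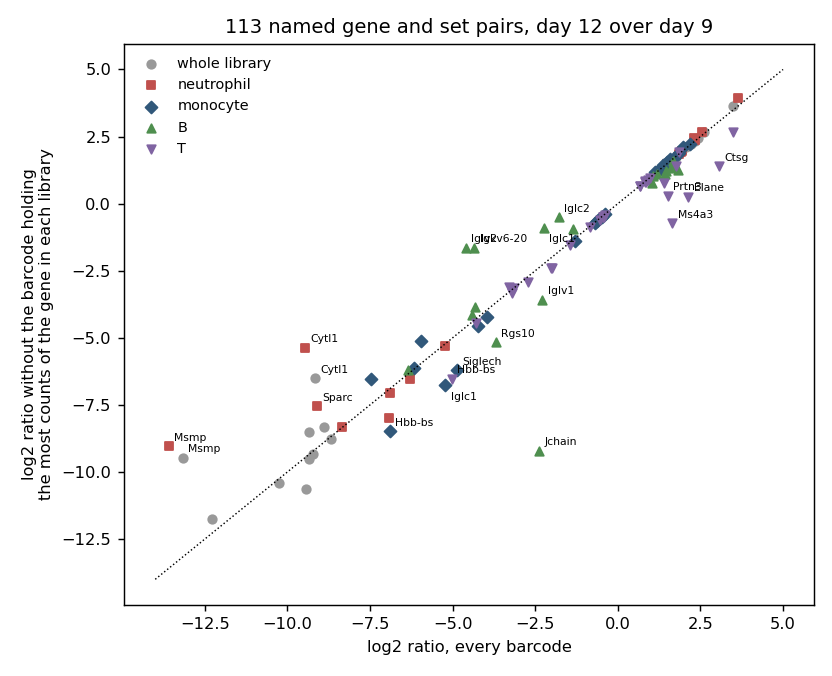
Log2 ratio of day 12 over day 9 of 113 named gene and set pairs with every barcode (horizontal) and without the barcode that holds the most counts of the gene in each library (vertical), with a dotted line of equality. *Iglc1* and *Iglc2* of the B set and *Elane*, *Prtn3* and *Ms4a3* of the T set leave the line toward 0 or past it, while *Cxcl2* and *Ccl3* of the neutrophil set stay close to it.

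Of the 97 named results past 2-fold, 87 stayed past it on the same side without those barcodes and 10 did not. The 10 were *Iglc1*, *Iglc2*, *Ighm* and *Ncl* in the B set, *Elane*, *Prtn3*, *Ms4a3* and *Mpo* in the T set, and the Y-linked *Kdm5d* and *Uty*, with 1 UMI each at day 12.

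Cells that met no lineage rule differed most in the rare types they held. Of 9270 genes in them, 75 (0.809%) were at least 2-fold higher and 313 (3.38%) lower, against 1.08% and 0.297% for day 6 over day 3. Erythroid genes summed to 9103 CPM at day 9 and 61.9 at day 12, with 6 of 10 at least 2-fold lower. Basophil genes had 6 of 8 lower, among them the proteases *Mcpt8* (227 and 16.3 CPM) and *Prss34* (293 and 24.2), and *Cpa3*. Plasmacytoid dendritic cell genes had 11 of 14 lower, with their receptor gene *Siglech* at 199 and 37.3 CPM, and the stromal list 6 of 8 lower (238 and 34.4 in sum). *Cxcl2* (47.4 and 227 CPM) and *Ccl3* (35.9 and 150.3) were higher in these cells too. Rare types were also counted as cells over the whole library, in any set. Those with at least 10% of UMIs from globin genes were 38 cells at day 9 and 0 at day 12. There 0 of 5565 cells allows a share of up to 0.0539%. Basophils were 26 and 3 cells, plasma cells 11 and 1, stromal or cartilage cells 17 and 0 and macrophages 19 and 0. At day 9, 37 of the 38 globin cells, 21 of 26 basophils and 11 of 19 macrophages met no rule. So did 7 of 17 stromal or cartilage cells and 2 of 11 plasma cells, while 9 plasma cells were in the B set. Cells with at least 2 UMIs of *Siglech* were 217 (3.13%) and 29 (0.521%). NK cells (2.22% and 1.74%) and granulocyte precursors (4.64% and 3.99%) lay closer together. At days 0, 3 and 6 the globin cells were 14, 3 and 11 and the *Siglech* cells 102, 171 and 207, so day 12 held the fewest of both in the series. On the same days basophils were 1, 10 and 16 cells and plasma cells 0, 3 and 15. Stromal or cartilage cells were 0, 8 and 9 and macrophages 3, 16 and 25. For these types day 0 was thus low as well, and low counts were not particular to day 12.

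*Xist*, the X-inactivation RNA of female cells, was lower at day 12 in the whole library (976 and 550.4 CPM) and in each set, with a log2 ratio of -0.42 in neutrophils, -0.49 in monocytes, -0.41 in B cells and -0.40 in T cells. In the whole libraries it had 910.4, 774, 988, 976 and 550.4 CPM from day 0 to day 12, so day 12 was the lowest. The Y-linked genes *Kdm5d*, *Eif2s3y*, *Uty* and *Ddx3y* had 0 UMIs at day 9 and no more than 1 at day 12. Both libraries therefore carried the pattern of female cells.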

How the data were processed

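Droplet single-cell RNA sequencing was done on bone marrow of 1 mouse per day. As deposited, each library is a matrix of UMI counts per gene and barcode, which the authors made with Cell Ranger against mm10, with the barcodes of empty droplets left in. The counts are raw and not normalized. The gene annotation release is not given in the sources used here. Coordinates are from a GENCODE annotation of the same assembly.

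Barcodes with at least 500 UMIs and no more than 10% mitochondrial UMIs were kept, grouped by the 4 lineage rules, and their counts summed per set, scaled to the set's total (CPM) and compared as a log2 ratio with 0.5 count added, over genes with at least 50 summed UMIs. Depth was 33425695 to 43554233 UMIs per library. Doublets were treated only by setting aside cells that met more than 1 rule; no doublet caller was run, and large barcodes were counted. Sums have exact Poisson, shares exact binomial and ratios exact conditional binomial 95% intervals, and differences of shares Newcombe intervals. Against a sum of 0 the floor was 3 counts. Free RNA was the sum of barcodes of at most 100 UMIs.

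Genes were named by the bound of the 95% interval nearest 0, the 10 highest and lowest of the whole library and 8 of each set, leaving out rule genes and clone names, and for monocytes, B and T cells also among genes at 2 times the free RNA level. Of each of 42 gene lists, the 4 members with most UMIs could be named, with members past 2-fold where they were counted. *Nfkbiz*, *Osm* and other such members were chosen after their values were seen. The comparison, its rules and the lists were chosen with earlier results of these data known, and the counting of rare types and the motifs after seeing the data. Alternatives changed the limits, rules, scaling (edgeR 4.0.16 TMM, DESeq2 1.42.0 size factors, used for scaling factors only), thinning, gene minimum, added count and free RNA. In simulated counts with genes changed by 4-fold, 100% of those in neutrophils and 96.4% of those in B cells were called, with 0.124% and 2.04% of unchanged genes. The simulation held counting error only, with no differences between cells, mice or libraries. Its rates therefore do not give the rate of false calls in these data. Python 3.11.15, scipy 1.17.1 and R 4.3.3 were used.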

Additional observations from a re-analysis of the deposited data

Results flagged for a closer look

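*Mpo*, the myeloperoxidase gene, had opposite directions in 2 sets. Its log2 ratio of day 12 over day 9 was 1.39 in the T set (117 and 307 CPM) and -1.06 in the monocyte set (501.1 and 239.5 CPM). The difference between the sets was not tested, since each day is 1 mouse. In the T set, 141 of the 179 UMIs of day 12 and 90 of the 133 of day 9 lay in 1 barcode, and without those barcodes the ratio was 0.78. In the monocyte set the counts were 2629 and 732 UMIs.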

How the results depend on the processing

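No paired analysis was possible because each day is 1 mouse with 1 library and the labels give no replicate numbers, and for the same reason no replicate could be left out. Of 28 alternative values of the lineage shares, 19 stayed within the interval, 8 moved beyond it and 1 reversed. The neutrophil difference was 13.4 points with barcodes from 250 UMIs and 13.1 with a mitochondrial limit of 5%. The B difference was -7.36 and -4.24 points under these, -10.01 with cells of more than 1 rule kept, -7.79 with stricter rules and -3.78 with cells thinned before the rules, where the T difference was -0.214 and the monocyte difference reversed to 0.0788. Of 146 alternative counts of genes past 2-fold, 94 stayed within 1.5 times and 52 did not, which are given next as higher and then lower genes.

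Over the whole library these were 210 and 476 with TMM, 219 and 469 with DESeq2 size factors, 51 and 447 when thinned, 150 and 1244 at 20 summed UMIs and 42 and 344 at 200, and the lower count was 1232 as a mean over cells and 282 with day 12 weighted to day 9. In neutrophils they were 142 and 152 with TMM, 144 and 150 with DESeq2 size factors, 41 and 91 thinned, 149 and 542 at 20 and 39 and 53 at 200 UMIs, with 461 lower as a mean over cells and 546 with free RNA subtracted. In monocytes they were 11 and 7 thinned, 126 and 225 at 20 and 13 and 9 at 200 UMIs, with 38 lower at 5 added counts. In B cells they were 195 and 497 as a mean over cells, 17 and 51 thinned, 364 and 477 at 20, 7 and 12 at 200 UMIs and 265 and 15 at 5 added counts, with 80 lower at a mitochondrial limit of 5%. In T cells they were 6 and 4 thinned, 165 and 223 at 20 and 9 and 7 at 200 UMIs, with 26 higher under stricter rules, 115 lower with cells of more than 1 rule kept, 72 lower as a mean over cells and 21 lower at 5 added counts. The counts fall with thinning and with a higher minimum because fewer UMIs or genes enter. Leaving out the 3 largest barcodes of each set and library, chosen after seeing the data, moved no count beyond 1.5 times. Leaving out instead, for each gene, the barcode with the most of its counts did so in the B set. There 50 genes were then higher and 381 lower, in place of 110 and 150, while the counts of the whole library and other sets stayed within 1.5 times.

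Of 1482 alternative values of named genes, 1266 stayed, 206 moved and 10 reversed. In the T set, *Elane* was -1.31 under stricter rules, *Prtn3* -1.12 and, thinned, -0.29, *Mpo* -0.81 and -0.52, and *Ms4a3* -1.61, -0.033 thinned, -0.19 as a mean over cells and -0.73 without its top barcode. *Hba-a2* of the neutrophil set was 3.65 with free RNA subtracted. For 13 named results no more than 3 counts were left in either library after that subtraction, and no ratio was taken. The cause of these differences was not tested. *Cxcl2*, *Ccl3*, *Trem1*, *Gadd45a* and *Cd14* of the neutrophil set stayed above 0 in each alternative. The B set of day 12, with 129 cells, and the T set, with 196, limit what their genes can show.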

Other observations

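Of 61 nuclear genes of the respiratory chain, which makes most of a cell's ATP, 47 had a log2 ratio above 0 in monocytes, 51 in B cells, 52 in T cells and 18 in neutrophils, and 0 passed 2-fold in these 4 sets. Over all genes tested, 53.02% lay above 0 in monocytes, 55.1% in B cells, 54.7% in T cells and 26.0% in neutrophils, so the lower neutrophil count goes with the lower ratios of all its genes. The list sums were 26446 and 28283 CPM in monocytes, 23424 and 26450 in B cells, 17407 and 19315 in T cells and 13445 and 12935 in neutrophils. The chaperone gene *Hsp90aa1* had 594 and 911 CPM in B cells, 247 and 372 in T cells, 357 and 454 in monocytes and 120.5 and 127 in neutrophils. The other abundant chaperone gene *Hspa8* had 954 and 979 CPM in B cells, with an interval of the log2 ratio from -0.11 to 0.18, and 1522 and 1241 in monocytes. Each value compares 1 mouse with 1 mouse.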
